A study of Mus musculus and Homo sapiens with 10 samples.

Results

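DNA methylation in mammalian cells is written by a small set of enzymes, and their transcripts were followed here in human embryonic stem cells. The set was chosen by gene symbol and named 8 genes: the methyltransferases DNMT1, DNMT3A and DNMT3B, their cofactor DNMT3L, the maintenance factor UHRF1, and the dioxygenases TET1, TET2 and TET3. Of these, 7 had rows in the deposited human expression table, with 16 RefSeq entries in all, out of 34596 entries for 22060 gene symbols. UHRF1 had 0 rows and was not analysed here. The series of 10 samples dealt with the control of L1 retrotransposons in mouse and human embryonic stem cells. The sh-DNMTs group was the human embryonic stem cell line H1 at passage 69 transduced with a lentiviral vector (LV) carrying hairpins against the DNMTs. The sh-empty group was the same line at passage 69, transduced with the empty hairpin vector. Each group was 1 library of cytoplasmic, poly(A)-selected RNA from 1 cell line. The labels name the hairpin targets as DNMTs and also carry the abbreviation TKD, which they do not spell out, so which transferases had a hairpin of their own is not stated there. The mouse samples were not used.

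DNMT1 copies methylation to the daughter strand after replication, and UHRF1 brings it to hemimethylated sites. DNMT3A and DNMT3B place methylation on unmethylated DNA. DNMT3L has no catalytic activity and stimulates both of them. The TET enzymes oxidise methylcytosine, and glycosylases such as TDG then remove the oxidised base so that repair can restore cytosine. Human pluripotent stem cells are known for high DNMT3B and for TET1 as their main TET enzyme.

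The library totals were 92478094 reads for sh-DNMTs and 100921087 reads for sh-empty, worked out from the deposited values. Values are RPKM, that is reads per kilobase of the RefSeq entry scaled to the reads of the library, which allows levels to be compared between genes. With 1 library per group no spread between cultures could be estimated and no test of the knockdown was made. The intervals below are exact 95% intervals on the reads and cover counting error only. The reads rest on the smallest entry length that gave whole reads in both libraries. Where that is a fraction of the true length, the reads given are too few and the intervals too wide. In bulk RNA, a knockdown in a part of the cells and a partial knockdown in each cell cannot be told apart.

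The 3 active methyltransferases were lower in sh-DNMTs cells, to different extents. DNMT1 was at 28.4% of its sh-empty level, DNMT3B at 41.9% and DNMT3A at 67.9%. TET1 and TET3 were higher, at 122% and 126%, and TET2 was at 53.2% from a low level. Of the 7 genes with rows, 5 had a mean of at least 0.5 RPKM over both libraries and entered the comparison with all genes, while TET2 and DNMT3L were below it. Of these 5, DNMT1 and DNMT3B were lower past a fold of 1.5 and 0 were higher. Over all 13043 genes with that mean, 13.0% were lower past this fold and 13.0% were higher. DNMT1 and DNMT3B were also lower past a fold of 2, as were 4.97% of all genes, while 4.37% of all genes were higher past it.

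**Figure D1:**
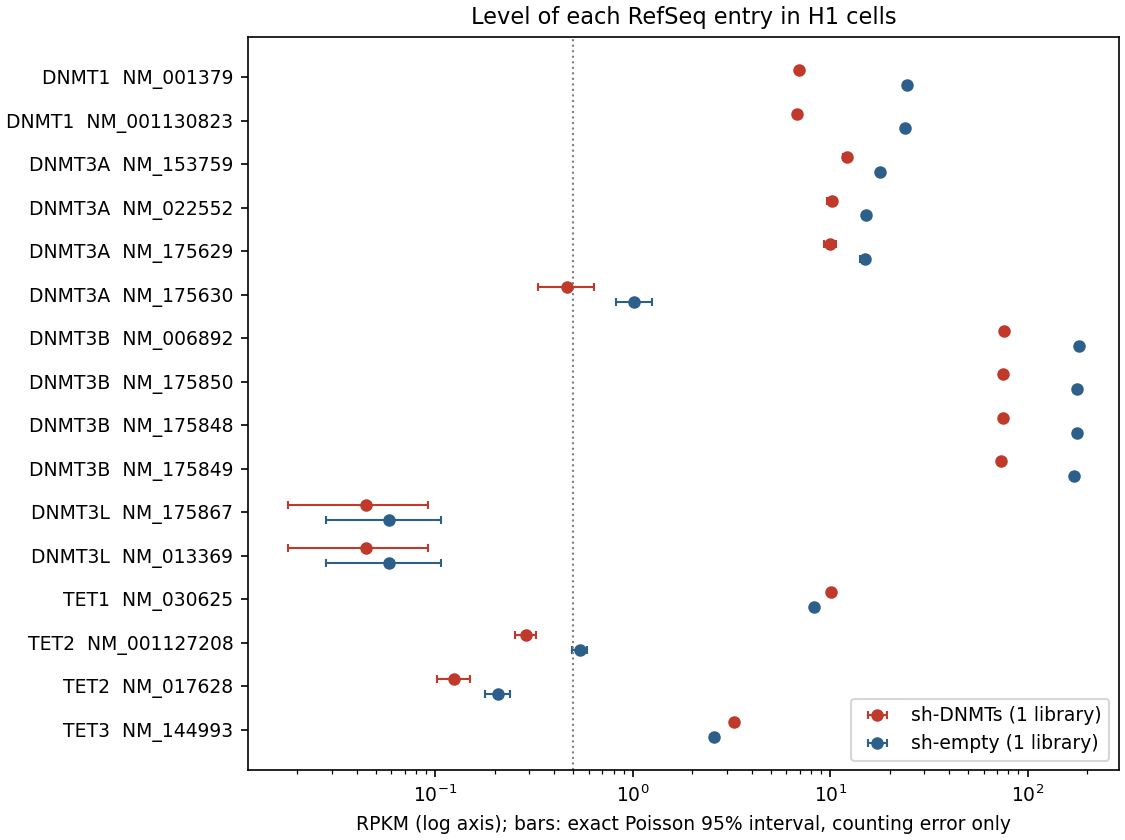
RPKM (log axis) of the 16 RefSeq entries of the 7 enzymes in the sh-DNMTs library (red) and the sh-empty library (blue), with exact 95% Poisson intervals that cover counting error only; many are narrower than the points. The dotted line marks 0.5 RPKM. The 4 DNMT3B entries lie furthest to the right in both libraries, between 73.2 and 75.9 RPKM for sh-DNMTs and between 172 and 181 RPKM for sh-empty.

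DNMT1, the maintenance enzyme, had the largest relative difference of the set. Its higher entry, NM_001379, stood at 6.95 RPKM in sh-DNMTs cells (interval 6.72 to 7.19, 3456 reads), against 24.5 RPKM in sh-empty cells (24.1 to 24.9, 13293 reads). The ratio of 28.4% had a counting interval of 27.3 to 29.5%. On the scale of log2(RPKM + 0.5), used for all comparisons with other genes, the difference was -1.75. Only 1.05% of the 13043 genes had a lower ratio. The position of DNMT1 among all genes moved with it: 44.8% of genes had a higher level than DNMT1 in sh-DNMTs cells, against 13.9% in sh-empty cells. The second entry, NM_001130823, gave nearly the same picture, with 6.81 RPKM in sh-DNMTs cells and 23.9 RPKM in sh-empty cells. It is 48 bases longer than NM_001379, yet it had 39 fewer reads in sh-DNMTs cells and 203 fewer in sh-empty cells. The additional bases thus brought no net gain of reads in either library.

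DNMT3B, the de novo enzyme typical of the early embryo, was the most abundant transcript of the set in both libraries. NM_006892, its highest entry, stood at 75.9 RPKM in sh-DNMTs cells (75.1 to 76.8, 30565 reads), against 181 RPKM in sh-empty cells (180.2 to 182.7, 79701 reads). The ratio was 41.9% (41.3 to 42.4%) and the log2 difference -1.25. A lower ratio was found for 2.83% of all genes. Even so, DNMT3B ranked 563 of 13043 by level in sh-DNMTs cells, against 198 in sh-empty cells. The level left in sh-DNMTs cells was 10.9 times that of DNMT1 and 6.23 times that of DNMT3A there. In sh-empty cells it was 7.41 times DNMT1 and 10.1 times DNMT3A.

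DNMT3A, the other de novo enzyme, differed least of the 3 transferases. NM_153759, its highest entry, stood at 12.2 RPKM in sh-DNMTs cells (11.7 to 12.7), against 17.9 RPKM in sh-empty cells (17.3 to 18.6). The ratio was 67.9% (64.2 to 71.8%), and the log2 difference of -0.54 stayed inside a fold of 1.5, which is 0.58 on this scale. With the values scaled by their upper quartile the difference was -0.60, just past that fold. A lower ratio was found for 14.7% of all genes. Reads of the DNMT3A entries were counted with lengths that may be a fraction of the true ones, so their intervals can be too wide. Since DNMT1 was the lower of the pair in sh-DNMTs cells and the higher in sh-empty cells, the quotient of DNMT1 over DNMT3A was 0.570 in sh-DNMTs cells and 1.36 in sh-empty cells.

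The DNMT3A entries did not all give the same ratio. NM_022552 stood at 10.2 RPKM in sh-DNMTs cells and 15.3 RPKM in sh-empty cells, and NM_175629 at 10.0 RPKM in sh-DNMTs cells and 15.0 RPKM in sh-empty cells, each at 66.9% of sh-empty. NM_175630 was much lower in level, at 0.467 RPKM in sh-DNMTs cells and 1.02 RPKM in sh-empty cells. Its ratio was 45.8%, with an interval of 30.6 to 67.2% from 39 reads in sh-DNMTs cells and 93 reads in sh-empty cells. This interval reaches the ratios of NM_022552 and NM_175629, and its upper end lies just under the ratio of NM_153759. The interval can be too wide, as the length used may be a fraction of the true one. It therefore cannot decide whether the ratios differ beyond counting error. On the log2(RPKM + 0.5) scale NM_175630 differed by -0.65, which is past a fold of 1.5. Whether DNMT3A counts as past that fold therefore depends on the entry and the scaling. DNMT3A is known to have a long and a short protein form, the short one prevailing in embryonic stem cells, but entries of a gene share exons and reads, so their values are not independent.

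**Figure D2:**
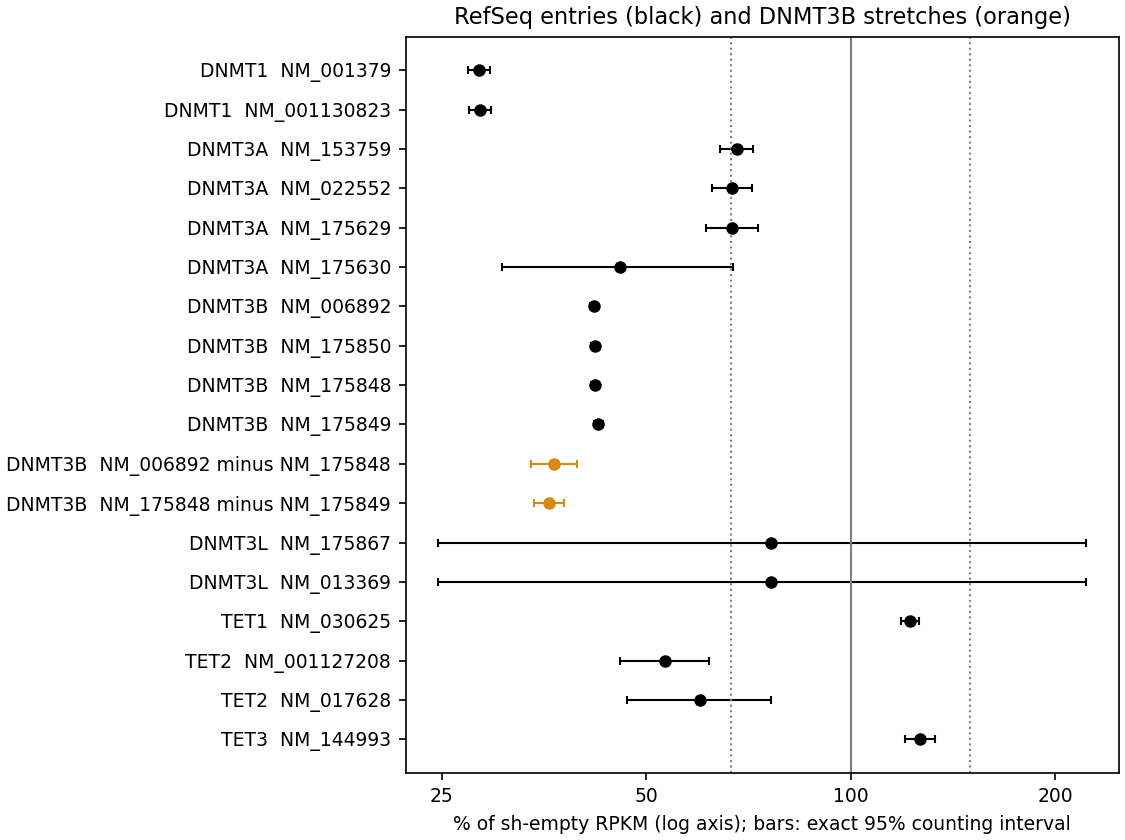
RPKM in the sh-DNMTs library as a percent of the sh-empty library (log axis), with 95% counting intervals. Black points are the RefSeq entries, with exact intervals. Orange points are the additional reads of the longer of 2 DNMT3B entries. Their intervals treat a net difference as a count of reads and can be too narrow. Dotted lines mark a fold of 1.5 either way. The DNMT1 entries lie at 28.4 and 28.5%, the DNMT3B entries between 41.9 and 42.5%, and the orange points at 36.6 and 35.9%, left of the DNMT3B entries.

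The DNMT3B entries lay close together, at 41.9% of sh-empty for NM_006892, 42.0% for NM_175848, 42.1% for NM_175850 and 42.5% for NM_175849. DNMT3B is known for skipped exons, some of which encode part of the catalytic domain, and the entries differ in length accordingly. NM_006892 is 60 bases longer than NM_175848 and had 872 more reads in sh-DNMTs cells and 2599 more in sh-empty cells, which is 36.6% of sh-empty after scaling to the library totals (33.9 to 39.5%). NM_175848 is 189 bases longer than NM_175849 and had 1909 more reads in sh-DNMTs cells and 5795 more in sh-empty cells, a ratio of 35.9% (34.1 to 37.9%). Both ratios lie below that of NM_175849, the shortest entry, whose interval was 41.9 to 43.1%. The intervals of the additional reads treat a net difference as a count of reads and can be too narrow. They therefore cannot decide whether these ratios differ beyond counting error. The additional reads were 10.0% of the reads of NM_175849 in sh-DNMTs cells, against 11.8% in sh-empty cells, when NM_006892 was compared with it directly. These are net differences, since an entry with more exons also loses reads over the joint that skips them, and they rest on 1 library per group.

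DNMT3L, the cofactor without catalytic activity, was close to the limit of detection. Its entries NM_175867 and NM_013369 each held 7 reads in sh-DNMTs cells and 10 reads in sh-empty cells, and NM_175867 stood at 0.0445 RPKM in sh-DNMTs cells and 0.0582 RPKM in sh-empty cells. The ratio of 76.4% had an interval of 24.7 to 222%, so no difference in either direction was detectable at this depth. The upper bounds for NM_175867 were 0.0916 RPKM in sh-DNMTs cells and 0.107 RPKM in sh-empty cells.

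TET1 was the most abundant of the dioxygenases. NM_030625, its sole entry, stood at 10.2 RPKM in sh-DNMTs cells (9.96 to 10.4, 9025 reads), against 8.32 RPKM in sh-empty cells (8.14 to 8.50, 8060 reads). The ratio was 122% (119 to 126%) and the log2 difference 0.27, larger than counting error but inside a fold of 1.5. A higher ratio was found for 29.1% of all genes.

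TET3, the dioxygenase known from the zygote, showed a like difference at a lower level. NM_144993 stood at 3.26 RPKM in sh-DNMTs cells (3.15 to 3.38, 3316 reads), against 2.58 RPKM in sh-empty cells (2.49 to 2.68, 2863 reads). The ratio was 126% (120 to 133%) and the log2 difference 0.29, and 28.1% of all genes had a higher ratio. Differences of the size of TET1 and TET3 were common among all genes.

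TET2, the member best known from blood cells, went the other way from a low level. NM_001127208 stood at 0.287 RPKM in sh-DNMTs cells (0.253 to 0.324, 260 reads), against 0.539 RPKM in sh-empty cells (0.494 to 0.587, 533 reads). NM_017628 stood at 0.124 RPKM in sh-DNMTs cells and 0.207 RPKM in sh-empty cells. The ratios were 53.2% (45.7 to 61.9%) and 59.9% (46.8 to 76.4%), and neither interval reached 100%. On the log2(RPKM + 0.5) scale, which understates the change of low genes, the difference of the first entry was -0.40. NM_001127208 is 560 bases longer than NM_017628 and had, net, 154 more reads in sh-DNMTs cells and 340 more in sh-empty cells. The level of TET2 thus depended on the entry. With NM_001127208, TET1 was 35.4 times TET2 in sh-DNMTs cells and 15.4 times in sh-empty cells.

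**Figure D3:**
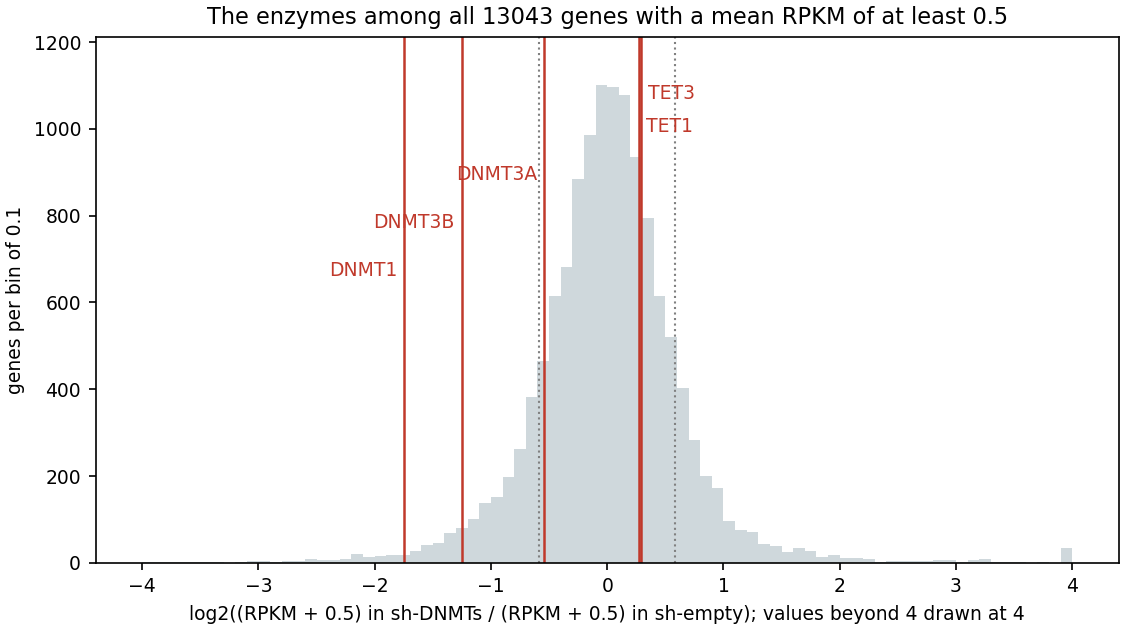
Histogram of the log2 ratio of (RPKM + 0.5), sh-DNMTs over sh-empty, for 13043 genes, with red lines at the 5 enzymes that reached a mean of 0.5 RPKM and dotted lines at a fold of 1.5. DNMT1 at -1.75 and DNMT3B at -1.25 lie in the lower tail, DNMT3A at -0.54 just inside the dotted line, and TET1 at 0.27 and TET3 at 0.29 within the main body.

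The order of the enzymes by level changed between the libraries. In sh-DNMTs cells it was DNMT3B, DNMT3A, TET1, DNMT1, TET3, TET2 and DNMT3L. In sh-empty cells it was DNMT3B, DNMT1, DNMT3A, TET1, TET3, TET2 and DNMT3L. The counting intervals of neighbours in either order did not overlap, but no spread over samples stands behind them. DNMT1 ranked below both DNMT3A and TET1 in sh-DNMTs cells and above both in sh-empty cells. Its quotient over TET1 was 0.684 in sh-DNMTs cells and 2.94 in sh-empty cells.

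Summed over their highest entries, the 3 transferases came to 95.1 RPKM in sh-DNMTs cells and 223.9 RPKM in sh-empty cells, or 42.5% of sh-empty. DNMT3B made up 79.9% of this sum in sh-DNMTs cells and 81.0% in sh-empty cells, so the sum mainly follows that gene. The share of DNMT1 was 7.31% in sh-DNMTs cells and 10.9% in sh-empty cells, and that of DNMT3A was 12.8% in sh-DNMTs cells and 8.02% in sh-empty cells. The 3 TET genes summed to 13.7 RPKM in sh-DNMTs cells and 11.4 RPKM in sh-empty cells. The transferase sum was 6.93 times the TET sum in sh-DNMTs cells, against 19.6 times in sh-empty cells.

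Markers of pluripotent cells were present in both libraries. The 13 pluripotency genes summed to 1919 RPKM in sh-DNMTs cells and 2201 RPKM in sh-empty cells. Past a fold of 1.5, 4 of the 13 were lower and 2 were higher, beside 13.0% lower and 13.0% higher over all genes. POU5F1, the central pluripotency factor, stood at 893 RPKM in sh-DNMTs cells and 921 RPKM in sh-empty cells, and TDGF1, a Nodal co-receptor, at 144 RPKM in sh-DNMTs cells and 418 RPKM in sh-empty cells. The 7 endoderm markers summed to 5.62 RPKM in sh-DNMTs cells and 1.11 RPKM in sh-empty cells. CER1, a secreted Nodal inhibitor, stood at 3.33 RPKM in sh-DNMTs cells and 0.600 RPKM in sh-empty cells. FOXA2, a forkhead factor of endoderm, stood at 1.24 RPKM in sh-DNMTs cells and 0.00816 RPKM in sh-empty cells, and reached the mean of 0.5 RPKM through the sh-DNMTs library alone. SOX17, GATA4 and GATA6 of this list were at or below 0.0285 RPKM in both libraries. The 7 mesoderm markers summed to 7.87 RPKM in sh-DNMTs cells and 13.1 RPKM in sh-empty cells. KDR, a VEGF receptor, stood at 7.35 RPKM in sh-DNMTs cells and 11.0 RPKM in sh-empty cells, inside the fold, and TBX6, a T-box factor, at 0.319 RPKM in sh-DNMTs cells and 1.78 RPKM in sh-empty cells, lower past it. The 7 trophectoderm markers summed to 2.99 RPKM in sh-DNMTs cells and 11.4 RPKM in sh-empty cells, nearly all of it KRT7, a keratin, at 2.84 RPKM in sh-DNMTs cells and 11.4 RPKM in sh-empty cells. CDX2, a homeobox factor and the next in level, held 5 reads in sh-DNMTs cells and 2 reads in sh-empty cells. The 7 neuroectoderm markers summed to 50.9 RPKM in sh-DNMTs cells and 34.2 RPKM in sh-empty cells, nearly all of it NES, an intermediate filament gene, at a ratio of 1.51 (1.48 to 1.54) and just past the fold. SOX10, a neural crest factor, stood at 0.450 RPKM in sh-DNMTs cells and 0.695 RPKM in sh-empty cells. The 7 fibroblast markers summed to 154 RPKM in sh-DNMTs cells and 94.9 RPKM in sh-empty cells. This sum was higher through THY1, a surface glycoprotein, at 109 RPKM in sh-DNMTs cells and 35.2 RPKM in sh-empty cells. The collagen gene COL1A2 stood at 26.1 RPKM in sh-DNMTs cells and 36.7 RPKM in sh-empty cells, and COL1A1 at 18.2 RPKM in sh-DNMTs cells and 22.8 RPKM in sh-empty cells, both inside the fold. The median log2 difference of the 3 fibroblast markers that reached the mean was -0.32, opposite in sign to the difference of the sum. DCN and LUM of this list had 1 read each in sh-DNMTs cells and 0 in sh-empty cells. HAND1 of the mesoderm list and CGA of the trophectoderm list had 0 reads in both libraries. By a 1-sided 95% bound this allows up to 3 reads in each, whereas the other intervals are 2-sided. The part of these differences in the enzyme values was not tested.

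The genes most like the transferases were sought as the 3 with the smallest distance on the log2(RPKM + 0.5) values of the 2 libraries. For DNMT1 they were VLDLR, a lipoprotein receptor, at a distance of 0.22, SAT1, a polyamine acetylase, at 0.30, and KDM3A, a histone H3 lysine demethylase, at 0.31. VLDLR, the nearest, stood at 8.19 RPKM in sh-DNMTs cells and 24.5 RPKM in sh-empty cells. For DNMT3A they were ACSS2, an acetyl-CoA synthetase, CDIP1 and BTAF1, all within a distance of 0.022. For DNMT3B they were SLC16A1, a lactate transporter, at 0.13, CCNG1, a cyclin induced by p53, at 0.24, and RN7SL2, a 7SL RNA, at 0.28. Over 2 libraries such likeness describes a level and a difference only.

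The genes around these enzymes were taken in 8 lists with 96 places, of which 86 were held by genes with a mean of at least 0.5 RPKM. Past a fold of 1.5, 23 of the 86 were higher in sh-DNMTs cells and 5 were lower, or 26.7% and 5.81%, beside 13.0% each over all genes. Their median log2 difference was 0.25, against 0.01 over all genes. The higher genes were not spread evenly over the lists. Of the 23, 8 were from the 14 S-phase genes and 4 from the 5 germline genes that reached the mean, with 0 lower in both lists. No other list gave more than 3. Of the 86, 5 reached the mean through the sh-DNMTs library alone and so had to differ: ZFP57, DPPA3, MAEL, SYCP3 and TDRD1. Among the other 81, 18 were higher and 5 were lower, or 22.2% and 6.17%, with a median of 0.23. The shares over all genes were not trimmed in this way, so they are no like reference for the 81. These shares are a description of lists chosen with earlier results of these data known. The 13.0% each over all genes is also the reference for the counts of the single lists below.

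Among 8 partners of maintenance methylation, 3 were higher past the fold and 0 were lower, with a median of 0.34. PCNA, the replication clamp that DNMT1 binds, stood at 157 RPKM in sh-DNMTs cells and 96.6 RPKM in sh-empty cells. CDCA7, which works with the remodeller HELLS, stood at 32.6 RPKM in sh-DNMTs cells and 17.9 RPKM in sh-empty cells. ZBTB24, a zinc finger factor needed for CDCA7 expression, stood at 6.50 RPKM in sh-DNMTs cells and 3.99 RPKM in sh-empty cells, and with the lowest entry of each gene it was inside the fold, at a log2 difference of 0.55. UHRF2, the paralogue of UHRF1, named after its value was seen, was at 11.1 RPKM in both libraries, with a ratio of 1.00 (0.957 to 1.05).

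DNMT1 transcription is linked to replication, so genes of S phase were set beside it. Of 14 such genes, 8 were higher past the fold and 0 were lower, with a median of 0.68, beside 13.0% each over all genes. Of the 14, 13 were above 0 and 1 was below it, CDT1 at -0.43. With upper quartile scaling MCM4 was inside the fold, at 0.55, and 7 were higher. DNMT1 was lower, and a link of its level to these genes was not tested. RRM2, a subunit of ribonucleotide reductase, stood at 43.2 RPKM in sh-DNMTs cells and 14.2 RPKM in sh-empty cells. CCNE2, a cyclin of the entry into S phase, stood at 2.31 RPKM in sh-DNMTs cells and 0.833 RPKM in sh-empty cells. The helicase subunit MCM7 stood at 148 RPKM in sh-DNMTs cells and 71.8 RPKM in sh-empty cells. CDC6, which loads that helicase, stood at 34.3 RPKM in sh-DNMTs cells and 17.2 RPKM in sh-empty cells.

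None of the 8 methyl-CpG readers was past the fold in either direction. Their log2 differences ran from -0.47 for MBD1 to 0.53 for ZBTB33, with a median of 0.05. With a pseudocount of 0.1, MBD1 was at -0.60, just past the fold. With the mean over its entries MBD1 was at -0.17 and with its lowest entry at 0.04, both under the minimum level. Of 11 genes of base excision repair, 3 were higher and 1 was lower, with a median of 0.07. UNG, the uracil glycosylase, stood at 79.4 RPKM in sh-DNMTs cells and 37.9 RPKM in sh-empty cells. APEX1, the abasic site endonuclease, stood at 170.2 RPKM in sh-DNMTs cells and 91.2 RPKM in sh-empty cells. TDG, which acts on the products of the TET enzymes, stood at 19.8 RPKM in sh-DNMTs cells and 13.0 RPKM in sh-empty cells, a log2 difference of 0.60. It was inside the fold with a pseudocount of 1 and with either other scaling, which leaves 2 of the 11 higher. XRCC1, the scaffold of the ligation step, was the lower one, with 11.3 RPKM in sh-DNMTs cells and 19.7 RPKM in sh-empty cells.

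Genes that supply or accompany the TET enzymes were split, with 2 of 12 higher, 3 lower and a median of -0.02. GADD45G, a stress gene tied to active demethylation, had the largest difference, at 2.41 RPKM in sh-DNMTs cells and 9.74 RPKM in sh-empty cells. CXXC5, a CpG-binding TET partner, stood at 27.4 RPKM in sh-DNMTs cells and 12.9 RPKM in sh-empty cells. IDH1, the cytosolic source of the TET cosubstrate 2-oxoglutarate, stood at 177 RPKM in sh-DNMTs cells and 106 RPKM in sh-empty cells. The mitochondrial IDH2, named after its value was seen, stood at 16.4 RPKM in sh-DNMTs cells and 26.7 RPKM in sh-empty cells. D2HGDH, which removes a TET inhibitor, stood at 0.864 RPKM in sh-DNMTs cells and 1.92 RPKM in sh-empty cells. With a pseudocount of 0.1, GADD45B, named after its value was seen, was lower past the fold too, at -0.67.

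In the methyl donor cycle 1 of 13 genes was higher and 1 was lower, with a median of 0.33 and 10 of the 13 above 0. MTRR, the reductase that reactivates methionine synthase, stood at 10.2 RPKM in sh-DNMTs cells and 6.45 RPKM in sh-empty cells. MTR, methionine synthase itself, stood at 2.29 RPKM in sh-DNMTs cells and 3.76 RPKM in sh-empty cells. Neither held under every alternative: MTRR was inside the fold with upper quartile scaling, at 0.57, and MTR with a pseudocount of 1, at -0.53. With the lowest entry of each gene SHMT2, a serine hydroxymethyltransferase, was higher too, at 0.59.

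Of 15 chromatin partners, 2 were higher and 0 were lower, beside 13.0% each over all genes, with a median of 0.19. DPPA3, which shields DNA from UHRF1 and maintenance in the germ line and early embryo, stood at 6.79 RPKM in sh-DNMTs cells and 0.314 RPKM in sh-empty cells. ZFP57, which keeps imprints methylated through KAP1, stood at 4.98 RPKM in sh-DNMTs cells and 0.159 RPKM in sh-empty cells. The ratio was 21.6 (15.2 to 31.6) for DPPA3 and 31.3 (21.8 to 46.7) for ZFP57. TRIM28, the gene of KAP1, named after its value was seen, stood at 233 RPKM in sh-DNMTs cells and 182 RPKM in sh-empty cells, a log2 difference of 0.35. Both DPPA3 and ZFP57 reached the mean of 0.5 RPKM through the sh-DNMTs library. With a pseudocount of 0.1, SUV39H2, named after its value was seen, was higher past the fold too, at 0.63. With its lowest entry SUV39H2 was at 0.22, under the minimum level.

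Germline genes whose promoters are known to be methylated in somatic cells form the last list. Of 12 genes, 5 reached a mean of 0.5 RPKM, and 4 of them were higher past the fold, beside 13.0% over all genes. DAZL, a germ cell RNA-binding protein, stood at 91.2 RPKM in sh-DNMTs cells and 2.90 RPKM in sh-empty cells. MAEL, a piRNA pathway gene, stood at 11.4 RPKM in sh-DNMTs cells and 0.126 RPKM in sh-empty cells. SYCP3 of the synaptonemal complex stood at 4.43 RPKM in sh-DNMTs cells and 0.122 RPKM in sh-empty cells, and TDRD1, a Tudor protein, at 1.88 RPKM in sh-DNMTs cells and 0.0549 RPKM in sh-empty cells. MAEL, SYCP3 and TDRD1 passed through the sh-DNMTs library, so their number is a description. SOHLH2, a germ cell transcription factor, was inside the fold, at 5.76 RPKM in sh-DNMTs cells and 4.69 RPKM in sh-empty cells. The 7 below the mean were all named after their values were seen. The helicase gene DDX4, at the smallest length that gave whole reads, held 87 reads in sh-DNMTs cells and 4 reads in sh-empty cells. Its ratio was 23.7 (8.95 to 89.1). The Tudor genes TDRD9 and TDRD6 had ratios of 20.7 (6.75 to 103.5) and 7.03 (5.58 to 8.95), and SYCP1 of the synaptonemal complex one of 4.00 (2.44 to 6.83). TEX14, an intercellular bridge gene, went the other way, with 83 reads in sh-DNMTs cells and 186 reads in sh-empty cells, a ratio of 0.487 (0.371 to 0.634). TEX101 held 3 reads in sh-DNMTs cells and 5 reads in sh-empty cells, and SPO11 had 0 in both. Without the minimum level, 7 of the 12 were higher past the fold on the log2(RPKM + 0.5) scale and the median was 0.87, against 2.99 for the 5 that reached it. At that setting 1919 genes of the whole table were higher and 1877 were lower, the table having 22060 gene symbols.

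**Figure D4:**
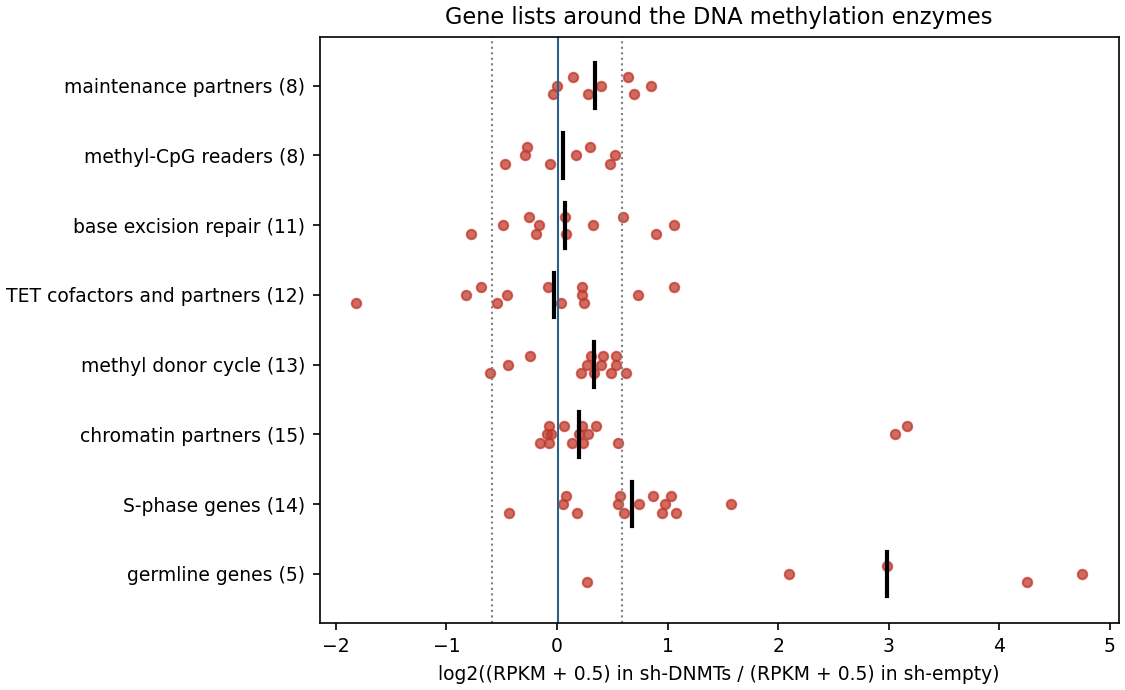
Log2 ratio of (RPKM + 0.5), sh-DNMTs over sh-empty, for the 86 list genes with a mean of at least 0.5 RPKM, 1 point per gene; black bars are list medians, the blue line is the median of all 13043 genes, and dotted lines mark a fold of 1.5. The number of genes drawn is in brackets. The S-phase genes lie mostly to the right, with a median of 0.68, and the readers lie between the dotted lines.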

How the data were processed

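Per the labels' protocols, poly(A) RNA was taken from the cytoplasm of H1 cells after a DNase step. The submitters' processing notes name Bowtie 0.12.5 and the build hg19. Not given in the sources used here are the counter, the annotation release, the strand setting and the placing of reads with several positions. RPKM values were deposited by the authors for RefSeq entries and L1 copies. Columns were matched to samples by name and samples to groups by title. The tables held no raw reads. For each library, 1 total was found that made the values of 9840 L1 copies whole reads (100% within 0.01 reads), and the smallest entry length up to 120000 bp that gave whole reads in both libraries (within 0.0005) was taken for each RefSeq entry. It was found for 100% of the 13043 genes tested, but can be a fraction of the true length, which makes intervals too wide. Poisson and conditional binomial (Clopper-Pearson) intervals at 95% used these reads, which are not independent molecules.

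Of each gene the entry with the highest mean was used. Differences are log2((RPKM + 0.5)/(RPKM + 0.5)), sh-DNMTs over sh-empty, for genes with a mean of at least 0.5 RPKM, and a fold of 1.5 stands in place of a test, since there was 1 library per group. All enzymes were named, as were the up to 4 list genes per list past the fold with the largest difference, the 3 nearest genes of each transferase and the 2 highest markers per lineage; other genes were named after their values were seen. The enzymes and lists were chosen with earlier results of these data known. Pseudocounts of 0.1 and 1, 2 other scalings, other entries per gene, other minimum levels and a fold of 2 were tried, and, chosen after seeing the data, list genes at 0.5 RPKM in both libraries only. The steps were tested on simulated data. Python 3.11.15, numpy 2.4.6, scipy 1.17.1, pandas 2.3.3 and matplotlib 3.10.9 were used.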

Additional observations from a re-analysis of the deposited data

How the results depend on the processing

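DNMT1 and DNMT3B were lower past a fold of 1.5 under each of the 9 alternatives, including a fold of 2. With the lowest entry of each gene, DNMT3A joined them at -0.65, and DNMT3B was at -1.23 and TET2 at -0.18. With a pseudocount of 0.1, DNMT1 was at -1.80 and TET2 at -0.72, past the fold but below the minimum level, and with a pseudocount of 1, DNMT1 was at -1.68. With upper quartile scaling, DNMT1 was at -1.80, DNMT3B at -1.31, DNMT3A at -0.60, again past the fold, and TET1 at 0.22. All of these kept the sign, and each but the last value of DNMT3A moved by more than the width to either side of its counting interval. The libraries were the same throughout, and only the stated setting was changed. At a fold of 2, 648 genes were lower and 570 higher, against 1697 and 1698 at a fold of 1.5, and 1 list gene was lower and 11 were higher, against 5 and 23. No paired analysis was possible because each human group has 1 library and no test was made. Depth limits DNMT3L, with 7 reads in sh-DNMTs cells and 10 reads in sh-empty cells. Counting intervals are wide for NM_175630 of DNMT3A and NM_017628 of TET2, and that of NM_175630 can be too wide through the length used.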
